A study of Sus scrofa with 9 samples.

Results

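Messenger RNA levels of 10 genes of the BCL2 family of apoptosis regulators were followed in primary pig myoblasts that made human DUX4, pig DUXC or GFP. The genes were taken by symbol from a table of 27339 genes: BCL2, BCL2L1, MCL1, BAX, BAK1, BID, BAD, BCL2L11, PMAIP1 and BMF. All 10 were found in the table and all 10 had enough reads to be tested, among 15956 tested genes. The cells were Göttingen myoblasts at passages 7 to 9, grown in F-10 medium with 15% serum and chicken embryo extract. Each of the 3 groups had 3 libraries and carried a transgene under doxycycline control: human DUX4, pig DUXC or, as the control, GFP. Every group, the control included, received 1 µg/mL doxycycline for 16 h before harvest, so the drug is shared and no group without it was analysed here. The labels tie the 3 libraries of a group to no clone, culture or animal, so the p-values cover the spread among libraries only, and that spread may be technical. The comparisons ask how the human factor and its pig counterpart, which are double homeobox transcription factors, change the myoblast transcriptome.

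Proteins of the BCL2 family decide whether the outer membrane of the mitochondrion is breached, the step that releases cytochrome c and starts the caspase cascade. BAX and BAK1 are the effectors that form the pores. BCL2, BCL2L1 (BCL-X) and MCL1 are the guardians that hold the effectors and their activators in check. BID, BAD, BCL2L11 (BIM), PMAIP1 (NOXA) and BMF are BH3-only proteins, which share a single short helix with the family and either neutralise guardians or activate effectors. DUX4 is known to be toxic to muscle cells when misexpressed, as it is in facioscapulohumeral muscular dystrophy. Many of these proteins are controlled after transcription, which read counts do not measure.

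Total counts per library ranged from 36580573 to 44420895, and each level below is a normalised read count (CPM, reads scaled to the TMM-adjusted total of the library). The DUX4 libraries differed more among themselves (chi-square per degree of freedom 7.29 to 19.3 over genes) than those with DUXC (3.36 to 4.66) or GFP (2.71 to 3.84), and calls that rest on 1 library are named with their results. Differences were tested with edgeR's quasi-likelihood F test, two-sided, with Benjamini-Hochberg adjustment over all tested genes. A gene is called changed at an adjusted p under 0.05. The transgenes changed much of the transcriptome: 64.8% of tested genes were called for DUX4 against GFP, 82.5% for DUXC against GFP and 82.4% for DUX4 against DUXC. Of 9 myoblast markers, NCAM1 stood at 86.4, 105 and 55.8 CPM with GFP, DUX4 and DUXC, and MET at 59.3, 148 and 91.0 CPM. DES stood at 7.15, 2.10 and 1.07 CPM and ITGA7 at 5.77, 14.8 and 4.07 CPM in the same order. Of 7 tested, 4 were higher and 1 lower with DUX4, and 4 higher and 3 lower with DUXC. Of all tested genes 32.9% were higher and 31.9% lower with DUX4, and 40.2% and 42.3% with DUXC. The summed level, mostly of NCAM1 and MET, ran from 157 to 164 CPM with GFP, 270.3 to 277 CPM with DUX4 and 156 to 159 CPM with DUXC. It hides markers that moved apart. MYOD1 had 1, 9 and 4 counts in all with GFP, DUX4 and DUXC, and CDH15 had 21, 22 and 31, both too few to test. PAX7, MYF5 and PAX3 stood at 0.402, 0.705 and 1.07 CPM with GFP. Markers of other cells moved with the groups: 7 of 8 fibroblast markers were lower with DUX4 and 6 of 8 with DUXC, where 31.9% and 42.3% of all tested genes were lower. The exceptions were TCF21, which rose by log2 0.53 with DUX4 and was not called with DUXC (adjusted p = 0.986 in edgeR), and PDGFRA. PDGFRA fell from 373 to 163 CPM with DUX4 and rose to 926 CPM with DUXC. The summed level, mostly of COL1A1, COL1A2 and COL3A1, ran from 49886 to 53013 CPM with GFP, 29020 to 32754 CPM with DUX4 and 25623 to 25643 CPM with DUXC. Of 8 smooth muscle and pericyte markers, 6 were lower with DUX4 and 7 with DUXC, with sums of 3082 to 3288, 1299.7 to 1414 and 778 to 804 CPM. Those higher were CSPG4 with DUX4 (log2 0.80) and RGS5 with DUXC (log2 2.38, from 11 counts in all with GFP). RGS5 had 11, 16 and 59 counts with GFP, DUX4 and DUXC and could be tested only because of the DUXC libraries. Its call is therefore a description. Sums stayed under 89 CPM for 6 endothelial markers and under 13 CPM for 7 immune markers in every library, and with GFP CDH5, PTPRC and CD3E had no count. Of 4 tested endothelial markers 3 were higher and 0 lower with DUX4, and 3 higher and 1 lower with DUXC. Their sum, mostly of ERG, hides PECAM1 at 6.16, 9.38 and 24.7 CPM with GFP, DUX4 and DUXC. KDR (2, 95 and 49 counts) and TEK (17, 18 and 337) could be tested only through groups where they are higher. Of 5 tested immune markers 3 were higher and 2 lower with DUX4, and 1 higher and 2 lower with DUXC. The shares of all genes given above stand beside these. The part of these shifts in the results below was not tested. In bulk RNA, fewer cells of a type and less RNA per cell cannot be told apart.

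Human DUX4 and pig DUXC each changed most of the 10 genes, and most differed between the transgenes. BCL2L11 and BMF fell most with DUX4, whereas with DUXC PMAIP1 rose most and BCL2L1 fell most. With DUX4, 7 of 10 were called, against 64.8% of all tested genes, with 3 higher (32.9% of all) and 4 lower (31.9% of all). With DUXC, 9 of 10 were called, against 82.5% of all, with 2 higher (40.2% of all) and 7 lower (42.3% of all). Between the transgenes 9 of 10 were called, against 82.4% of all, with 4 higher (40.8% of all) and 5 lower (41.6% of all) with DUX4. The shares of members called in either direction are near those of all genes, and so the number of calls is no result about the family. The median absolute log2 fold change over the 10 was 0.33 with DUX4 and 0.35 with DUXC, beside 0.30 and 0.59 over all tested genes. The groups stood fully apart, with no overlap of their libraries, for 7 members with DUX4, 8 with DUXC and 9 between the transgenes, and for 67.0%, 83.5% and 83.0% of all tested genes.

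**Figure D1:**
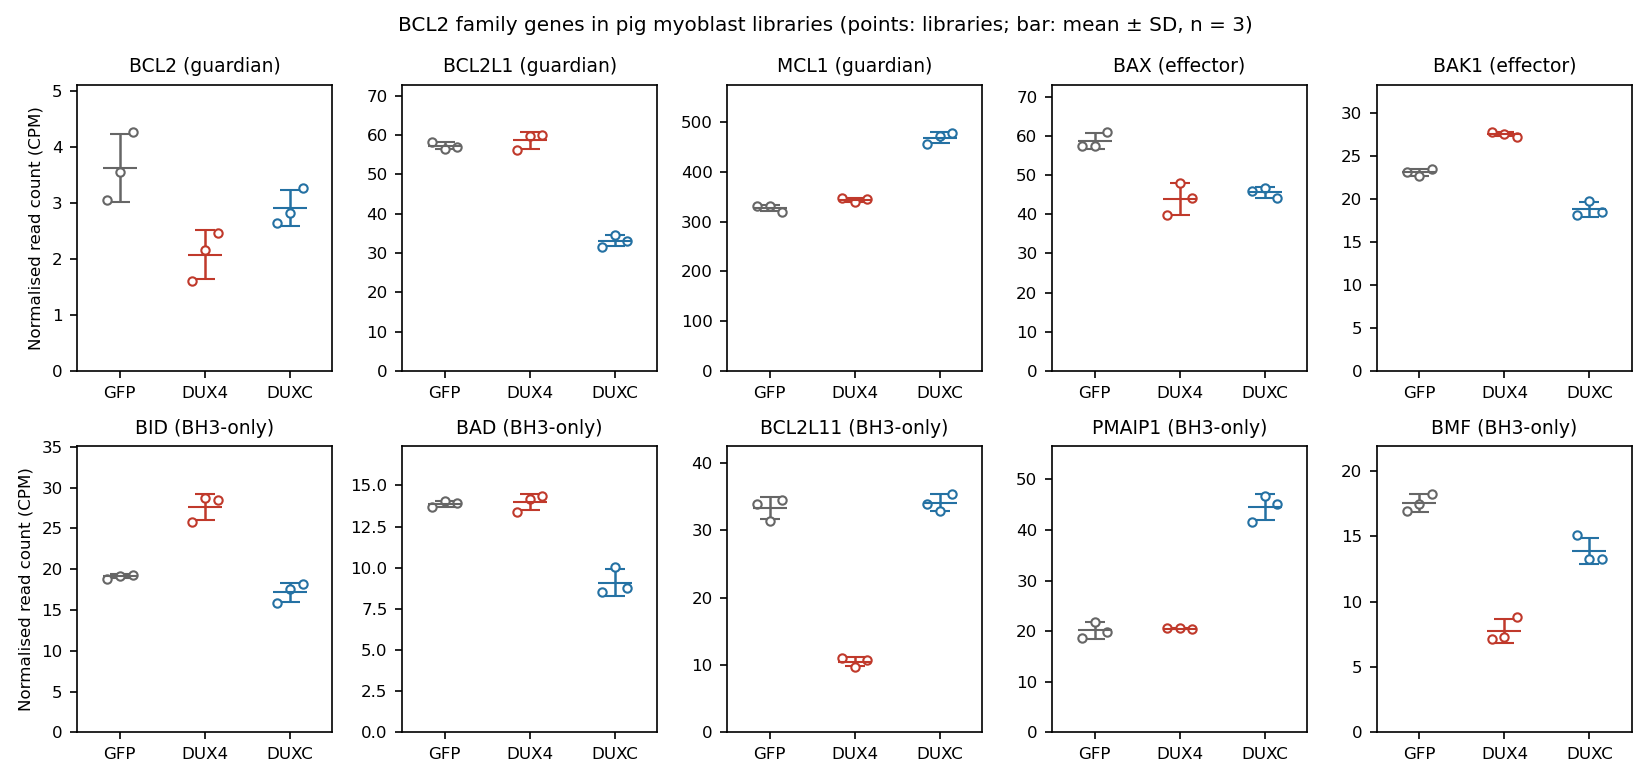
Normalised read counts (CPM, vertical axis from 0) of the 10 genes in the 3 GFP, 3 DUX4 and 3 DUXC libraries; points are libraries and bars are mean ± SD. BCL2L11 and BMF are lowest with DUX4, PMAIP1 and MCL1 are highest with DUXC, and BCL2L1 and BAD are lowest with DUXC.

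The largest difference among the members was in a BH3-only gene and belonged to DUX4. BCL2L11 encodes BIM, a BH3-only protein that can bind every guardian and activate BAX and BAK1 directly. It lies on chromosome 3, from 45156791 to 45202996 in Sscrofa11.1. Its level was 34.0, 31.4 and 34.6 CPM in the GFP libraries, 11.02, 9.75 and 10.7 CPM with DUX4 and 34.0, 32.9 and 35.4 CPM with DUXC. All DUX4 libraries were low, while those with GFP and DUXC overlapped. Against GFP it fell by 1.67 on the log2 scale with DUX4 (SE 0.0576, adjusted p = 1.56e-29 in edgeR), to 0.315 of the control level, and only 2.43% of tested genes had a lower log2 fold change. With DUXC the log2 difference was 0.03 (95% interval -0.07 to 0.13, adjusted p = 0.535 in edgeR). This last value depends on the scaling: with DESeq2's size factors it was 0.11 and called (adjusted p = 0.0364), and with library size alone it was 0.16 and called (adjusted p = 0.00321). Against DUXC, DUX4 was lower by a log2 fold change of -1.70 (adjusted p = 1.95e-30). BCL2L11 shares 2390 bases of its span with LOC110260116, which had 96 counts in all with GFP, 24 with DUX4 and 82 with DUXC, and touches ACOXL over 122 bases. The use of strand in the counting is not given in the sources used here, so some of its reads may belong to those genes.

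BMF, a BH3-only protein tethered to the actin cytoskeleton in healthy cells, also was lowest with DUX4 (chromosome 1, 131178021 to 131199668). Its level was 16.9, 17.5 and 18.2 CPM with GFP, 7.11, 7.30 and 8.82 CPM with DUX4 and 15.06, 13.3 and 13.3 CPM with DUXC. The 3 groups formed separate steps, GFP above DUXC above DUX4, and no library crossed from one step to another. It fell by 1.18 on the log2 scale with DUX4 (SE 0.0742, adjusted p = 3.71e-19) and by 0.34 with DUXC (SE 0.0683, adjusted p = 1.56e-05). The difference between the transgenes was itself called, at a log2 fold change of -0.84 (adjusted p = 5.63e-14, all 3 in edgeR).

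PMAIP1 answered to DUXC. It encodes NOXA, a BH3-only protein that binds MCL1 (chromosome 1, 161184458 to 161188138). Its level was 18.7, 21.9 and 19.8 CPM with GFP, 20.6, 20.6 and 20.4 CPM with DUX4 and 41.7, 46.8 and 45.2 CPM with DUXC. The DUXC libraries all stood near 2.21 times the control, and the DUX4 libraries lay within the GFP range. The log2 fold change was 1.15 with DUXC (SE 0.0525, adjusted p = 7.71e-25) and 0.03 with DUX4 (95% interval -0.09 to 0.14, adjusted p = 0.680), both in edgeR. The direct comparison, DUX4 minus DUXC, gave -1.12 (adjusted p = 1.42e-24).

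BID and BAD, the remaining BH3-only genes, were both higher with DUX4 than with DUXC. BID, which caspase-8 cleaves to link death receptors to mitochondria (chromosome 5, 69849007 to 69874647), stood at 18.8, 19.2 and 19.3 CPM with GFP. It reached 25.8, 28.7 and 28.4 CPM with DUX4 and stood at 15.8, 17.5 and 18.1 CPM with DUXC. It rose by a log2 fold change of 0.53 with DUX4 (SE 0.0554, adjusted p = 8.10e-12). With DUXC it fell by 0.15 (SE 0.0590, adjusted p = 0.0154, edgeR), and this small call was lost with DESeq2's size factors (adjusted p = 0.227), library size alone (0.647), DESeq2 (0.298), a fit of the 6 libraries compared (0.0961) and without DUXC replicate 1 (0.134). BAD, a BH3-only protein that survival kinases switch off by phosphorylation (chromosome 2, 7831192 to 7842864), stood at 13.7, 14.02 and 13.9 CPM with GFP and 13.4, 14.2 and 14.4 CPM with DUX4. In the DUXC libraries it was 8.50, 10.02 and 8.74 CPM, below all others. It fell by 0.61 with DUXC (SE 0.0710, adjusted p = 1.02e-10), and with DUX4 the log2 difference was 0.01 (95% interval -0.12 to 0.14, adjusted p = 0.894, edgeR). DUX4 exceeded DUXC by log2 0.69 in BID and 0.62 in BAD (adjusted p = 1.60e-15 and 5.10e-11).

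The guardians did not move as a block. MCL1, a short-lived guardian that cells must keep making (chromosome 4, 98562092 to 98567014), stood at 332, 331 and 320.02 CPM with GFP, 347, 339 and 346 CPM with DUX4 and 456, 473 and 477 CPM with DUXC. Every DUXC library exceeded every other, and the DUX4 libraries lay just above those of GFP. With DUXC it rose by a log2 fold change of 0.52 (SE 0.0295, adjusted p = 3.47e-21). With DUX4 it rose by 0.07, or 4.98% (SE 0.0296, adjusted p = 0.0352, edgeR), a call that was lost without DUX4 replicate 1 (adjusted p = 0.0646), DUX4 replicate 3 (0.0724) or GFP replicate 3 (0.172) and without a filter on low counts (0.0622). DUX4 minus DUXC gave -0.45 (adjusted p = 7.58e-19).

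BCL2L1, whose main product BCL-XL guards the mitochondrion (chromosome 17, 35366139 to 35415798), went the other way with DUXC. Its level was 58.2, 56.5 and 56.9 CPM with GFP, 56.2, 59.7 and 59.8 CPM with DUX4 and 31.6, 34.6 and 33.1 CPM with DUXC. The DUXC libraries were all low and those with DUX4 overlapped the control. It fell by 0.79 on the log2 scale with DUXC (SE 0.0417, adjusted p = 1.82e-22), to 0.579 of the control level. With DUX4 the log2 difference was 0.03 (95% interval -0.04 to 0.11, adjusted p = 0.453, edgeR), and DUX4 exceeded DUXC by 0.82 (adjusted p = 2.60e-23). Gene counts do not separate BCL-XL from the short isoform of the same gene.

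BCL2, the founding guardian (chromosome 1, 158337403 to 158518214), was scarce and its values were the least precise of the 10. The libraries held 125, 138 and 166 reads with GFP, 65, 94 and 96 with DUX4 and 102, 115 and 128 with DUXC. In CPM these were 3.06, 3.54 and 4.26, then 1.60, 2.16 and 2.46, then 2.63, 2.82 and 3.26. The DUX4 libraries lay below all others, and those with DUXC overlapped the control. The coefficient of variation was 16.7%, 21.1% and 11.14% in the GFP, DUX4 and DUXC libraries, where counting alone gives 8.36%, 10.8% and 9.33%. BCL2 fell by 0.80 with DUX4 (SE 0.145, adjusted p = 4.76e-06). With DUXC it fell by 0.32 (SE 0.137, adjusted p = 0.0327, edgeR), and that call was lost with DESeq2's size factors (adjusted p = 0.107), library size alone (0.193), DESeq2 (0.189) or the 6 libraries compared (0.0551), and without DUXC replicate 1 (0.123), DUXC replicate 2 (0.0808) or GFP replicate 3 (0.235). DUX4 minus DUXC was -0.49 (adjusted p = 0.00312), a call lost without DUX4 replicate 1 (adjusted p = 0.0508, with log2 fold change -0.32).

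The effector genes moved in opposite directions with DUX4. BAX, which moves from the cytosol to mitochondria on activation (chromosome 6, 54222341 to 54228150), stood at 57.5, 57.4 and 60.9 CPM with GFP, 39.7, 48.0 and 44.03 CPM with DUX4 and 45.9, 46.8 and 44.03 CPM with DUXC. It was lower with both transgenes, by a log2 fold change of -0.42 with DUX4 (SE 0.0472, adjusted p = 1.31e-09) and -0.36 with DUXC (SE 0.0472, adjusted p = 1.31e-08, edgeR), and both compare with the same GFP libraries. The DUX4 libraries spread more than those of other groups, with a coefficient of variation of 9.44% against 2.35% from counting. Between the transgenes the log2 difference was -0.05 (95% interval -0.15 to 0.05, adjusted p = 0.311). It was called at -0.10 with DESeq2's size factors (adjusted p = 0.0471), at -0.15 with library size alone (0.00312) and at -0.11 without DUX4 replicate 2 (0.0275), and it was 0.03 without DUX4 replicate 1 (0.590).

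BAK1, the effector that resides on mitochondria (chromosome 7, 29808849 to 29815345), was raised by DUX4 and lowered by DUXC. It stood at 23.2, 22.7 and 23.5 CPM with GFP, 27.7, 27.5 and 27.3 CPM with DUX4 and 18.1, 19.8 and 18.5 CPM with DUXC, so the 3 groups were separate, DUX4 above GFP above DUXC. It rose by 0.25 with DUX4 (SE 0.0504, adjusted p = 2.36e-05) and fell by 0.30 with DUXC (SE 0.0530, adjusted p = 2.15e-06), and the difference of 0.55 between the transgenes was called (adjusted p = 1.94e-13, edgeR). The whole span of BAK1 lies within that of LOC102162214, a long noncoding RNA gene with 198, 148 and 121 counts in all with GFP, DUX4 and DUXC, beside 2744, 3391 and 2237 for BAK1. BCL2, BCL2L1, BID and BAD also overlap noncoding RNA genes, of which that at BID had 198 counts with GFP, 201 with DUX4 and 163 with DUXC, that at BAD 26, 28 and 23, and those at BCL2 and BCL2L1 at most 3 in any group. MCL1, BAX, PMAIP1 and BMF overlap no annotated gene.

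**Figure D2:**
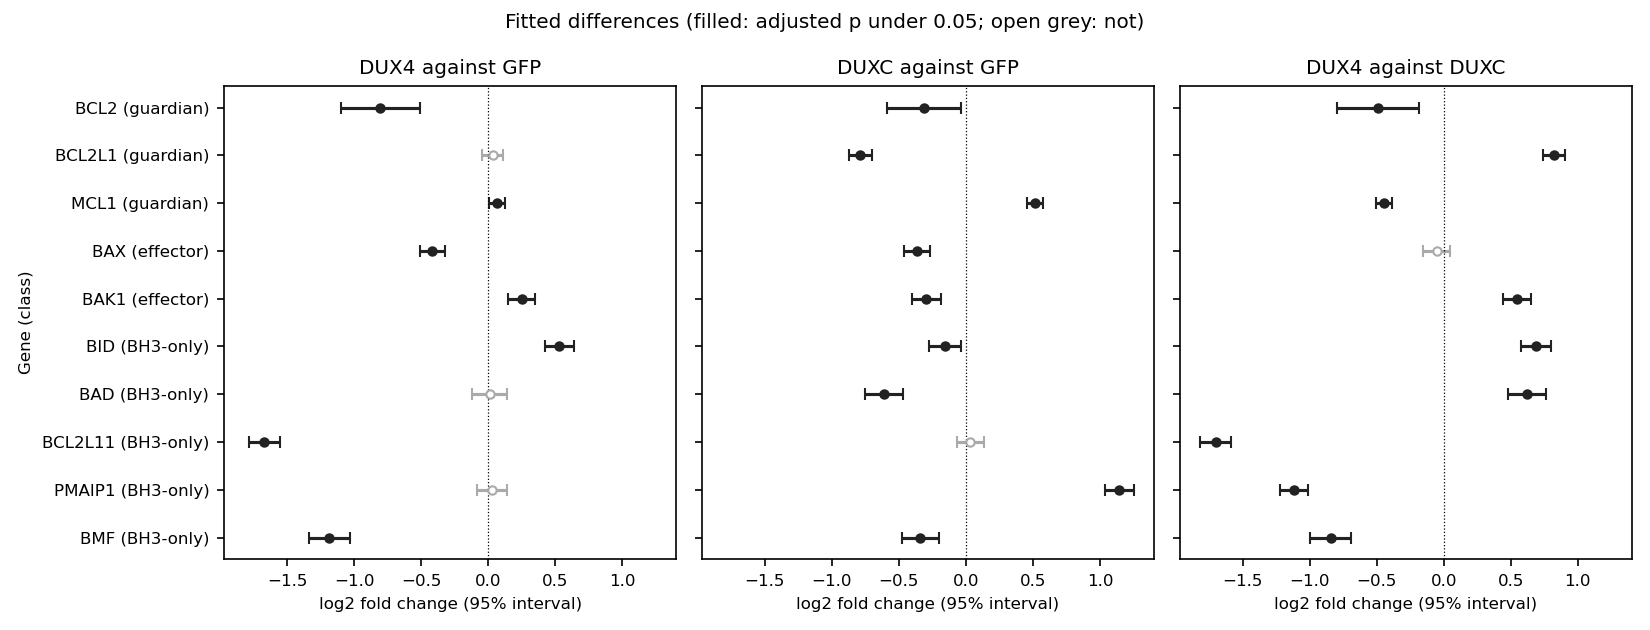
Fitted log2 fold changes of the 10 genes with 95% intervals (horizontal axis) in the 3 comparisons; filled points have an adjusted p under 0.05 and open grey points do not. BCL2L11 lies farthest from 0 in the DUX4 panel, at -1.67, and PMAIP1 in the DUXC panel, at 1.15.

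The order of the 3 groups differed from member to member. GFP was highest and DUX4 lowest for BCL2, BAX and BMF, although for BAX the DUX4 and DUXC levels were not told apart. DUX4 was highest and DUXC lowest for BCL2L1, BAK1, BID and BAD, where DUX4 and GFP did not differ beyond their spread for BCL2L1 and BAD. DUXC was highest for MCL1, PMAIP1 and BCL2L11, where DUX4 and GFP did not differ for PMAIP1 and DUXC and GFP did not for BCL2L11. On the log2 scale the span from the lowest to the highest group mean was 1.70 for BCL2L11, 1.18 for BMF, 1.14 for PMAIP1 and between 0.42 and 0.82 for the others. By class, DUX4 lowered 2 of 5 BH3-only genes and raised 1, and DUXC lowered 3 and raised 1. Of 3 guardians DUX4 raised 1 and lowered 1, and DUXC raised 1 and lowered 2. Beside these counts, 32.9% of all tested genes were higher and 31.9% lower with DUX4, and 40.2% and 42.3% with DUXC. With so few genes in a class, the counts are no result about it. They include calls that were lost under some alternatives: MCL1 with DUX4, and BCL2 and BID with DUXC. Levels were not compared between genes, since transcript lengths were not used here.

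Ratios of read counts within a library need no scaling between libraries, and they were taken for 4 pairs of a guardian and a proapoptotic member as a description with no test. The ratio of BCL2L1 to BAX was 1.01, 0.984 and 0.934 in the GFP libraries, 1.42, 1.24 and 1.36 with DUX4 and 0.689, 0.739 and 0.753 with DUXC. It was therefore above the control in every DUX4 library and below it in every DUXC library. The ratio of MCL1 to PMAIP1, a guardian and the BH3-only protein that binds it, was 17.8, 15.1 and 16.1 with GFP, 16.9, 16.4 and 17.0 with DUX4 and 10.9, 10.1 and 10.6 with DUXC. Although both genes rose with DUXC, the ratio was lower in all 3 DUXC libraries. MCL1 to BAK1 was 14.2 ± 0.517 with GFP, 12.5 ± 0.193 with DUX4 and 24.9 ± 0.955 with DUXC (mean ± SD, n = 3). BCL2 to BCL2L11 was 0.109 ± 0.0170 with GFP, 0.199 ± 0.0466 with DUX4 and 0.0851 ± 0.00727 with DUXC. Here the DUX4 libraries lay above all others, with both genes lower than in the control, and 1 of the DUXC libraries overlapped the GFP range. Read counts also reflect transcript length, so a ratio compares libraries and does not say which of the genes is more abundant.

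**Figure D3:**
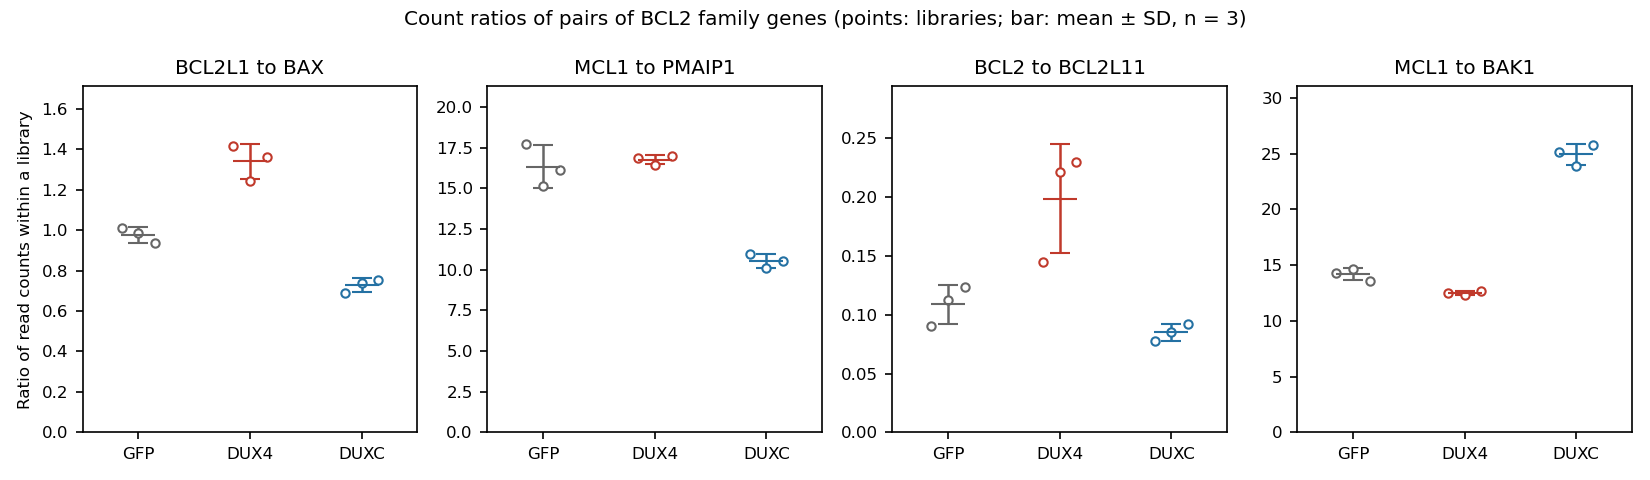
Ratios of read counts of gene pairs within each library (vertical axes from 0) for the 3 GFP, 3 DUX4 and 3 DUXC libraries; points are libraries and bars are mean ± SD. BCL2L1 to BAX is highest with DUX4 and lowest with DUXC, and MCL1 to BAK1 is highest with DUXC, at 24.9.

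Of 12 other genes of the BCL2 family on a further list, 10 were in the table by symbol and 7 were tested. With either transgene 1 was higher (HRK) and 3 were lower, so that 4 of 7 were called, against 64.8% of all tested genes with DUX4 and 82.5% with DUXC. Their median log2 fold change was -0.10 with DUX4 and 0.05 with DUXC, beside 0.0035 and -0.03 over all tested genes, and these shares and medians of all genes also stand against the lists that follow. BOK, a BAX-like effector, fell from 42.5 ± 1.22 to 23.7 ± 1.32 CPM with DUX4 and to 20.1 ± 0.647 CPM with DUXC (n = 3). BCL2L13 fell by 0.30 and 0.42 on the log2 scale. BBC3, which encodes the BH3-only protein PUMA, fell from 5.81 ± 1.07 to 4.52 ± 0.374 and 3.55 ± 0.116 CPM, and its call with DUX4 (adjusted p = 0.00342 in edgeR) was lost without GFP replicate 2 (adjusted p = 0.0504). HRK, a BH3-only gene of neurons, rose from 0.126 ± 0.0515 to 0.330 ± 0.0739 CPM with DUX4 and 0.690 ± 0.0463 CPM with DUXC, a low level in every group. With 5, 7 and 3 counts in the GFP libraries, HRK passed the filter on low counts only through the groups where it is higher. Its calls are therefore a description. BCL2A1 had no count with GFP or DUX4 and 2 with DUXC. BCL2L2 and BIK were not analysed here.

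Downstream of the family, the 18 genes of the apoptosome and the caspases were 9 higher and 4 lower with DUX4, and 5 higher and 9 lower with DUXC. The calls, 13 and 14 of 18, were near the 64.8% and 82.5% of all tested genes, and the median log2 fold changes were 0.22 and -0.12. CYCS, which encodes cytochrome c, had log2 fold changes of 0.22 with DUX4 and -0.37 with DUXC (adjusted p = 1.64e-07 and 4.66e-14 in edgeR). VDAC1 and VDAC2, channels of the outer mitochondrial membrane of which VDAC2 binds BAK1, rose by log2 0.37 and 0.45 with DUX4 and fell by 0.88 and 0.73 with DUXC. CASP10, a caspase of death receptor complexes, rose from 6.24 ± 0.453 to 14.5 ± 0.751 CPM with DUX4 and 44.1 ± 0.467 CPM with DUXC. CASP2 rose with DUX4 (log2 0.87) and fell with DUXC (log2 -0.34). APAF1, the scaffold of the apoptosome, rose with DUXC by log2 0.37. With DUX4 it stood at log2 0.04 and was not called (adjusted p = 0.366 in edgeR). CASP9, the initiator caspase of the apoptosome, was lower with DUX4 by log2 -0.16 (adjusted p = 0.0210, edgeR). That call was lost with DESeq2's size factors (adjusted p = 0.0535), DESeq2 (0.0966) and without DUX4 replicate 1 (0.156) or GFP replicate 2 (0.0768). With DUXC CASP9 had log2 -0.11 (adjusted p = 0.0906), and it was called without a filter on low counts (log2 -0.15, adjusted p = 0.0235).

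All 4 tested members of the IAP family, caspase inhibitors and related proteins, rose with DUXC, where 82.5% of all tested genes were called and 40.2% were higher. Their median log2 fold change was 0.34 with DUXC and 0.03 with DUX4. BIRC3 went from 191 ± 6.92 to 408 ± 14.9 CPM and XIAP from 71.7 ± 2.24 to 91.8 ± 3.75 CPM. With DUX4, BIRC3 fell by 0.20 on the log2 scale, and XIAP and BIRC6 were not called (adjusted p = 0.308 and 0.587 in edgeR). BIRC5, which encodes survivin, a protein of dividing cells, rose from 5.91 ± 0.878 to 37.9 ± 1.32 CPM with DUX4 and 7.36 ± 0.372 CPM with DUXC.

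Of 10 tested genes of the death receptor pathway, which reaches mitochondria through BID, 3 were higher and 4 lower with DUX4, and 5 were higher and 4 lower with DUXC. The 7 and 9 calls were near the 64.8% and 82.5% of all tested genes, and the medians were log2 -0.10 and 0.15. The death ligand gene TNFSF10 (TRAIL) fell from 8.88 ± 0.501 to 2.81 ± 0.311 CPM with DUX4 and rose to 97.9 ± 1.74 CPM with DUXC, and the direct difference was log2 -5.13 (adjusted p = 5.75e-49 in edgeR). The receptor gene FAS also went apart, from 25.5 ± 1.25 to 13.9 ± 0.837 CPM with DUX4 and 33.8 ± 0.169 CPM with DUXC. TNFRSF1B, a receptor for tumour necrosis factor, fell by 1.10 on the log2 scale with DUX4 and by 0.28 with DUXC. TNFRSF1A fell with DUXC (log2 -0.54) and had log2 -0.08 with DUX4 (adjusted p = 0.108), a value called without DUX4 replicate 2 (adjusted p = 0.0451) or GFP replicate 2 (0.0457). CRADD, an adaptor of caspase-2, rose from its control level by log2 0.38 with DUX4 and 1.33 with DUXC, and its DUX4 call was lost without GFP replicate 2 (adjusted p = 0.109). CFLAR, an inhibitor of caspase-8, rose with DUXC (log2 0.19) and had log2 -0.08 with DUX4 (adjusted p = 0.103, edgeR), a value called without GFP replicate 3 (log2 -0.12, adjusted p = 0.0207).

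Among 20 tested genes of factors that act upstream of the family, 9 were higher and 9 lower with each transgene. Those higher include TP73, with 27, 67 and 61 counts in all with GFP, DUX4 and DUXC. TP73 could be tested only because of the DUX4 and DUXC libraries, where it is higher. Of all tested genes 32.9% were higher and 31.9% lower with DUX4, and 40.2% and 42.3% with DUXC, and the medians of the list were log2 -0.01 and 0.00309. MDM2, a ubiquitin ligase gene, fell from 245 ± 5.23 to 152 ± 1.28 and 205 ± 4.91 CPM. Stress factors that can induce BH3-only genes varied. ATF3 rose by log2 1.29 with DUX4 and 2.48 with DUXC, whereas ATF4 and DDIT3 (CHOP) rose by 0.41 and 0.27 with DUX4 and were lower by log2 -0.12 and -0.44 with DUXC. The ATF4 call with DUXC was lost with DESeq2's size factors (adjusted p = 0.149), DESeq2 (0.132) and library size alone, where its log2 fold change was 0.00242. JUN rose by log2 1.77 and 1.25, and NFKB1 by 0.40 and 1.65. E2F1, a cell cycle factor, rose from 3.22 ± 0.225 to 20.8 ± 1.16 CPM with DUX4 and 7.22 ± 0.487 CPM with DUXC. MITF fell from 26.2 ± 2.05 to 10.2 ± 0.354 CPM with DUX4 and rose to 48.6 ± 2.12 CPM with DUXC.

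Genes for partners of these proteins and for their turnover were 10 higher and 5 lower of 23 with DUX4, and 8 higher and 15 lower with DUXC. The 15 calls with DUX4 were near the 64.8% of all tested genes, and with DUXC all 23 were called, against 82.5% of all with 42.3% lower. The 8 higher with DUXC include TRIM17, which passed the filter on low counts only through the DUXC libraries. With DUX4 it enters the 23 and their median at log2 0, with no count in either group. The medians were log2 0.06 and -0.43. DYNLL1 and DYNLL2, the dynein light chains that tether BIM and BMF, moved apart with DUXC, DYNLL1 from 201 ± 0.864 to 393 ± 15.4 CPM and DYNLL2 from 83.3 ± 1.71 to 37.5 ± 0.957 CPM. With DUX4 DYNLL2 rose by log2 0.20 and DYNLL1 was not called (adjusted p = 0.708). MAPK3, the gene of the kinase ERK1, which marks BIM for degradation, fell by 0.39 with DUX4 and 0.92 with DUXC on the log2 scale. PPP3CA, the calcineurin subunit gene, fell by 0.93 with DUXC and was not called with DUX4 (adjusted p = 0.312 in edgeR). YWHAH, one of the 14-3-3 proteins that hold BAD, rose by 0.54 with DUX4 and fell by 0.43 with DUXC. TPT1, a binding partner of MCL1, fell by 0.52 with DUX4. Its DUXC value of log2 -0.12 was called and lost with DESeq2's size factors (adjusted p = 0.203), DESeq2 (0.140) and library size alone (0.793, with log2 0.00813). TRIM17, a ligase that can mark MCL1 for degradation, was picked out after its values were seen. It had no count with GFP or DUX4 and 23, 14 and 20 with DUXC, at least 19.1-fold higher against a floor of 3 counts over the GFP group, and it could be tested only because of the DUXC libraries.

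**Figure D4:**
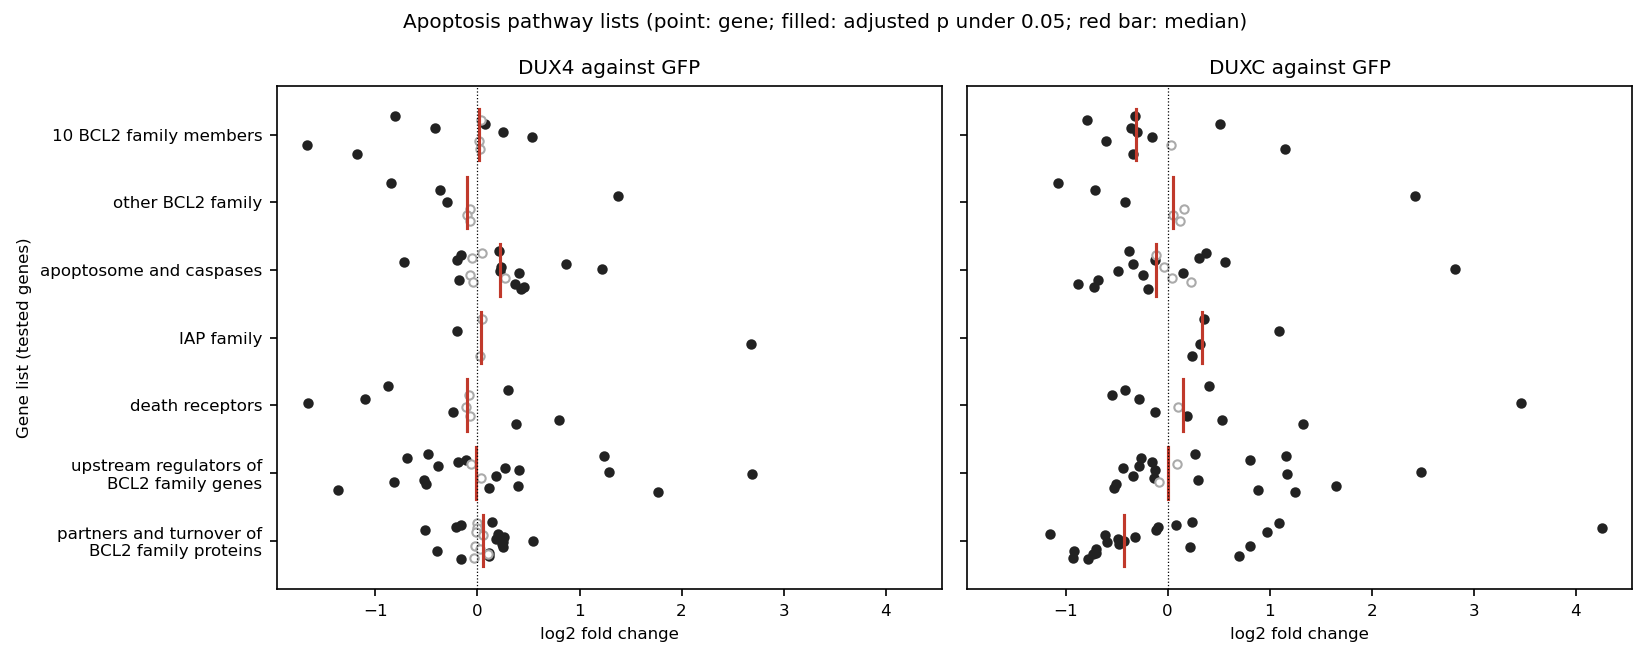
Log2 fold changes (horizontal axes) of the 10 genes and of the tested genes of the 6 pathway lists for DUX4 against GFP and DUXC against GFP; each point is a gene, filled where its adjusted p is under 0.05, and red bars are medians. TRIM17 is drawn at its lower bound with DUXC, and at 0 with DUX4, as it had no count with GFP or DUX4. The IAP family points all lie above 0 with DUXC.

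The profile of BCL2L11, the member with the widest span, was compared with the 12246 tested genes with a gene name rather than a LOC identifier that reached 1 CPM in a group. Likeness was the Euclidean distance between log2 CPM profiles over the 9 libraries, each centred on its own mean. The nearest were TENM4 at 0.216, CCDC80 at 0.234 and SETBP1 at 0.245. TENM4 went from 49.1 ± 3.26 with GFP to 16.2 ± 0.262 with DUX4 and 52.7 ± 1.08 CPM with DUXC. CCDC80, a matrix protein gene, went from 388 ± 1.92 to 120.2 ± 6.64 and 382 ± 2.31 CPM, and SETBP1 from 19.0 ± 0.567 to 6.66 ± 0.288 and 20.7 ± 1.21 CPM. Their log2 fold changes with DUX4 were -1.60, -1.69 and -1.51, beside -1.67 for BCL2L11. As these genes were chosen for that likeness, their values are a description. Of 40 genes chosen by rule beyond the 10 members, 12 overlap another annotated gene, among them BOK, HRK, XIAP, CASP9, APAF1, DDIT3 and TENM4.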

How the data were processed

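The deposited table holds raw read counts per gene for 9 libraries prepared as stranded mRNA libraries, per the labels. Per the submitters' processing notes the authors used CASAVA 1.9, Trim Galore, featureCounts and genome build Sscrofa11.1, and per the file headers Subread alignments. For the annotation release and the strand setting the sources used here give nothing. Counts were used as deposited. Of 27339 genes, filterByExpr by group left 15956. One model held all 9 libraries, with TMM factors (0.960 to 1.06) and robust quasi-likelihood, in edgeR 4.0.16 under R 4.3.3, and was tested on simulated data first. Standard errors are the log2 fold change over the root of F. Profiles for the distance used log2 CPM with a prior count of 2. An exact permutation test of 3 libraries against 3 cannot go below 0.1 and was not used. Libraries of a group differed beyond sampling noise (chi-square per degree of freedom 7.29 to 19.3 among the DUX4 libraries, 3.36 to 4.66 with DUXC and 2.71 to 3.84 with GFP), so none was counted as repeat sequencing of another. These values cannot tell separate cultures from separate preparations of the same culture. Residuals of libraries with the same number correlated between -0.0258 and 0.0318, so no shift shared by number was seen. Pairs with different numbers were not compared, so this does not settle whether the numbers pair libraries. The labels do not say that they do, and no block was used. Positions come from RefSeq for the same build, and all 10 members matched by symbol.

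The members and lists were chosen with earlier results of these data known. Named are the members, the 3 genes of each pathway list with the smallest p against GFP for each transgene, 15 pathway genes set by name where the table holds them (some of the genes so chosen are not reported here), and the 3 genes nearest in profile to the member with the widest span. A few further list genes (CYCS, TRIM17 and markers of cell types) were named after their values were seen. Alternatives were DESeq2's size factors, library size alone, no filter, DESeq2 1.42.0, limma-voom (limma 3.58.1), the 6 libraries compared alone, a replicate block and each of the 9 libraries left out in turn.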

Additional observations from a re-analysis of the deposited data

How the results depend on the processing

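Of 210 values of the members under other tools, scalings, filters and fits, 196 kept their direction and side of the threshold, 9 lost a call, 4 gained one and 1 turned direction. Of 270 with a library left out, 257 kept both, 8 lost a call, 1 gained one and 4 turned direction. With a library left out, 6 to 7 members were called for DUX4 against GFP, 7 to 9 for DUXC against GFP and 8 to 10 between the transgenes. Under the other alternatives the counts were 6 to 7, 7 to 9 and 9 to 10. With the replicate number as a block they were 7, 9 and 9, the same as without it, and the block changed no call of a member. Library size alone moved the median log2 fold change of all genes by 0.12 for DUXC against GFP, by -0.10 for DUX4 against DUXC and by 0.02 for DUX4 against GFP. The member values that turned direction were all near 0 in the reported fit and were not called. BCL2L11 with DUXC was -0.0108 without a filter and -0.0153 to 0.0605 with a library left out, negative without GFP replicate 2. With a library left out, BAX between the transgenes ran from -0.113 to 0.0265 (positive without DUX4 replicate 1), BAD with DUX4 from -0.00590 to 0.0406 (negative without DUX4 replicate 3) and PMAIP1 with DUX4 from -0.0232 to 0.0921 (negative without GFP replicate 1). Over 41 further genes, 1098 values with a library left out held 16 lost calls, 3 gained calls and 3 turned directions, and 854 under other alternatives held 12, 2 and 10. Those that turned were DYNLL1 with DUX4 (0.0110 with DESeq2's size factors, 0.00960 with library size alone, 0.0111 with DESeq2), XIAP and BIRC6 with DUX4 (-0.00413 to 0.0801 and -0.00185 to 0.0652 with a library left out, negative without DUX4 replicates 1 and 3 respectively), CASP9 (0.0148 with DUXC under library size alone, and -0.0783 to 0.0152 between the transgenes with a library left out, positive without DUX4 replicate 1), TPT1 and ATF4 with DUXC (0.00813 and 0.00242 with library size alone), and CCDC80 with DUXC (0.0564 with DESeq2's size factors and with DESeq2, 0.104 with library size alone, 0.0308 with the 6 libraries compared). CCDC80 with DUXC under library size alone was also called (adjusted p = 0.00247 in edgeR) and is counted only among the turned directions. Beyond the changes of scale, the causes were not tested. Depth limits BCL2, with 65 to 166 reads per library, and HRK, with 15 reads over the GFP libraries.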
